A study of Rattus norvegicus with 9 samples.

Results

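RNA sequencing of rat knee cartilage was examined for 10 genes of glycolysis and glucose uptake, taken by name from the 32043 genes of the deposited expression table. They were the glucose transporter Slc2a1, the hexokinases Hk1 and Hk2, the phosphofructokinases Pfkl and Pfkp, and the enzymes Aldoa, Gapdh, Pgk1, Eno1 and Ldha. Gapdh was matched by its identifier, ENSRNOG00000018630, because the table lists it as LOC108351137. The values are FPKM, fragments scaled by gene length and by a library size set by the authors, so levels of different genes are compared per length.

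The 9 libraries fell into 3 groups of 3. All rats were male Sprague–Dawley rats bought at 8 weeks of age. In the model group, knee osteoarthritis (KOA) was induced with the modified Hulth method, a destabilising operation on ligaments and meniscus of the knee. Forced daily activity after the operation was part of the protocol. Control rats only had the joint capsule opened and closed again. The SYD-H group was made in the same way as the model group and was then given the extract of Shengyu decoction (SYD), a herbal formula, at its high dose by gavage for 4 weeks. Tissue was collected 8 weeks after surgery. The sample labels carry the 3 groups but no dose. The study's methods name only control and model tissue for sequencing, whereas its results name control, model and SYD-H, with N = 3. Neither the labels nor the paper says whether a library was made from 1 rat or from several, so the p-values measure only the spread between these libraries. The labels give cartilage as the tissue, while their extraction text speaks of retina, but 9 photoreceptor markers summed to 3.5005 FPKM or less in every library. The titles assign the third group to syd, whereas its library names begin with CXTB, letters that the sources used here do not explain. The study also had a positive control group named CXB, which the paper does not list among the groups sequenced.

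Glycolysis splits glucose into pyruvate in the cytosol and yields ATP without oxygen. Glucose enters through transporters such as GLUT1 (Slc2a1), is trapped in the cell by hexokinase, and is committed to the pathway by phosphofructokinase. Aldolase, glyceraldehyde-3-phosphate dehydrogenase (Gapdh), phosphoglycerate kinase (Pgk1) and enolase (Eno1) act on the later intermediates, and lactate dehydrogenase (Ldha) turns pyruvate into lactate. Articular cartilage has no blood vessels and little oxygen, and its chondrocytes are known to draw most of their energy from this pathway. Many of these genes are known targets of hypoxia-inducible factors, which bind short DNA elements built around the letters ACGTG or GCGTG.

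The promoters of 3 genes are shown, because Hk1 was the member that differed most from the control group in both comparisons with it, Hk2 is the other hexokinase, and Ldha was the member that differed least across the libraries. Each window has 300 bases around an annotated start, most of them upstream of it, in RefSeq's GRCr8 assembly, 5′ to 3′ on the gene's strand. Capitals mark ACGTG or GCGTG on either strand, which read CACGT or CACGC where the match lies on the other strand. Hk1 has 2 annotated starts on the minus strand, at chr20:30874765-30875064 and chr20:30842023-30842322. The Hk2 window lies on the minus strand at chr4:116841226-116841525, and that of Ldha on the plus strand at chr1:106507842-106508141.
Hk1, start 1: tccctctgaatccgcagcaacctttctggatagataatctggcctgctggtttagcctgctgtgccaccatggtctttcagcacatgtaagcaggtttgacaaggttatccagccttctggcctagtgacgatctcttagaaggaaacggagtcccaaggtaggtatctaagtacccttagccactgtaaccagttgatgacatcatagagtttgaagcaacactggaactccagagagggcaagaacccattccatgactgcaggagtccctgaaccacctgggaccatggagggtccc
Hk1, start 2: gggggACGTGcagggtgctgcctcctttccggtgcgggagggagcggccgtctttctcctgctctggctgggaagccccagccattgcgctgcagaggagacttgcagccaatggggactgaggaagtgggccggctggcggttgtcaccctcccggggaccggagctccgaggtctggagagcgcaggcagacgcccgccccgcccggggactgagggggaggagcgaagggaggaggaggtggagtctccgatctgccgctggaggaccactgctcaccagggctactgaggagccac
Hk2: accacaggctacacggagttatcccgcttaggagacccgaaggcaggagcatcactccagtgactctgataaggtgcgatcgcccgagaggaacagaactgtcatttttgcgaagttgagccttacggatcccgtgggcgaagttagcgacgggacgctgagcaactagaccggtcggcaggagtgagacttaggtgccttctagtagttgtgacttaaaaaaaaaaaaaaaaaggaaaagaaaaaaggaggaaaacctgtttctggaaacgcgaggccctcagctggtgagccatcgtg
Ldha: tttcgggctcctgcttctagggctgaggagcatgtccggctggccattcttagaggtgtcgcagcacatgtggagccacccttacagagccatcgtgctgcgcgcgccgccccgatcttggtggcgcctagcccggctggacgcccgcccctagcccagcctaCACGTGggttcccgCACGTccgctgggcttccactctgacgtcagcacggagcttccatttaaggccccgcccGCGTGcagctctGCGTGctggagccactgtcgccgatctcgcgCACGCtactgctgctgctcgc
Counting both strands, the Ldha window held 6 matches, of which the palindrome CACGTG gave 2, whereas 1 of the Hk1 windows held 1 match and the Hk2 window held 0. RefSeq windows were found for 9 of the 10 members. There were 13 windows in all, 9 of them held a match, and these belonged to 8 members. Of all 33469 rat promoter windows of this length, 41.6% held at least 1 match. A match describes the letters only and shows no binding.

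Depth, recovered from the step size of the values (100% of which came out as whole reads within a tolerance of 0.1), was 14914121 to 19510537 reads per library. Reads on the 37 mitochondrial genes took 4.05 to 4.86% in the control group, 39.5 to 90.7% in the model group and 23.7 to 72.7% in the SYD-H group. Only 1744769 reads lay outside them in model library 1, 3611325 in model library 3 and 5153851 in SYD-H library 3, against 11106680 or more in each of the other 6. The summed FPKM of 15 chondrocyte markers ranged from 493 to 11617 in the control group, from 197 to 844 in the model group and from 184 to 2561 in the SYD-H group. None of these markers was at 0 in all libraries. Markers of blood and muscle were present too, with 6693 to 16675, 310 to 45275 and 1377 to 13953 FPKM over 11 erythroid genes and 21.3 to 358, 38.1 to 1085 and 34.6 to 1199 FPKM over 11 skeletal muscle genes. In such whole tissue, fewer cells of a type and less RNA per cell cannot be told apart.

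Within every library, the same 4 members stood highest. Eno1, Ldha, Gapdh and Pgk1 together held 83.4 to 97.0% of the summed FPKM of the 9 members with usable values. In each control library the order was Eno1, Ldha, Pgk1 and Gapdh, with group means of 111 ± 24.7, 80.9 ± 11.5, 76.2 ± 14.6 and 57.1 ± 11.8 FPKM (SD, n = 3). The means of Ldha and Pgk1 differed by less than their SDs, whereas Eno1 lay above Ldha, and Pgk1 above Gapdh, by more than either SD, although the ranges of both pairs overlapped. Hk1 with 22.0 ± 5.0 FPKM and Pfkl with 21.0 ± 2.46 FPKM (SD, n = 3) followed and did not differ beyond their spread, and Pfkp, Slc2a1 and Hk2 were the lowest. The same order of these 4 was found in model library 2 and SYD-H library 1, while Gapdh was the highest member in model library 3 and Ldha the highest in SYD-H libraries 2 and 3.

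**Figure D1:**
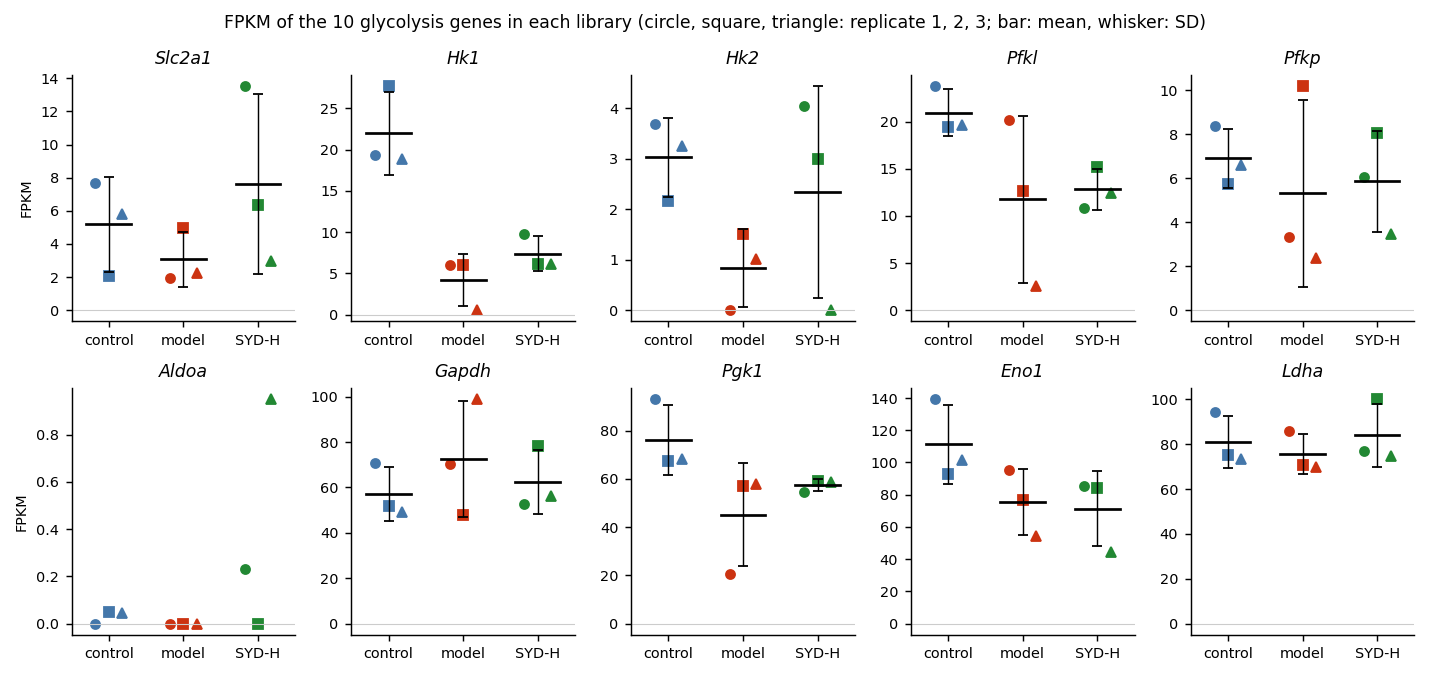
FPKM (linear axes) of the 10 genes in each library, by group; symbols are libraries, bars are group means and whiskers are SDs, which are left out for Aldoa. Hk1 lies at 18.8 FPKM or above in the control group and at 9.83 FPKM or below elsewhere, while the Ldha groups overlap.

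For the comparison of groups, limma was fitted to log2(FPKM + 1) over 13898 genes whose mean FPKM reached 0.5, a scale that understates the fold changes of genes with low FPKM. A gene was called with the study's criteria, a raw p-value under 0.05 with a log2 fold change over 1 in either direction. The p-value adjusted over all tested genes (Benjamini–Hochberg) is given beside it.

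The model of KOA, instability with forced activity, was asked about first, by setting the model group against the control group. Here 2 of the 9 members tested were called, Hk1 and Hk2, both lower in the model group, and 14.7% of all tested genes were called. An adjusted p-value under 0.05 (limma) was reached by 0 of the 9 members, of which 2 had an unadjusted one, and by 2.59% of all genes. The latter, 360 genes, became 0 without any 1 of the control libraries. It became 1 without model library 3 and 2621 without model library 2. The log2 fold changes were below 0 for 8 members and above 0 for Gapdh only (with TPM, which moved the median of all genes to -2.60, all 9 were below 0), with a median of -0.57 beside -0.23 for all tested genes. The libraries of the groups did not overlap for 3 members, Hk1, Hk2 and Pgk1, each lower in the model group, as was the case for 20.0% of all genes. Non-overlap in the other direction was found for 0 members and 8.65% of all genes. When the model libraries with over 50% mitochondrial reads, 1 and 3, were left out, Hk1 was the 1 of 9 members called, beside 23.8% of all genes. This setting was chosen after seeing the data and leaves 1 model library, so the control libraries supplied all of the spread and that library was taken to vary as they do.

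The extract was asked about in the SYD-H group against the model group. Of the 9 members, 0 were called, against 4.15% of all genes, and 0 members had an adjusted or an unadjusted p-value under 0.05 in limma (0% of all genes had an adjusted one). Without model library 2, 18% of all genes and still 0 members were called. The log2 fold changes ran from -0.17 for Gapdh to 0.96 for Slc2a1, with a median of 0.45 beside 0.22 for all genes. Hk1 was the 1 member whose libraries did not overlap, being higher in the SYD-H group, as were 7.89% of all genes, and the reverse held for 0 members and 3.17% of all genes. The 95% intervals were wide, so neither a rise nor a fall of 1 on the log2 scale lay outside the interval for Hk2, Pfkl and Pfkp.

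In the SYD-H group against the control group, Hk1 was again called, as the 1 of 9 members that was, and 16.5% of all genes were called. Hk1 and Pfkl had an adjusted p-value under 0.05 (limma), both lower in the SYD-H group, beside 17.3% of all genes. The median log2 fold change was -0.39 for the members and 0 for all genes. Hk1, Pfkl, Pgk1 and Eno1 were lower in every SYD-H library than in every control library, a pattern found in 22.2% of all genes, and 0 members were higher without overlap, against 20.3% of all genes. The control libraries serve in both comparisons with model and SYD-H libraries, and the model libraries in both comparisons above.

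**Figure D2:**
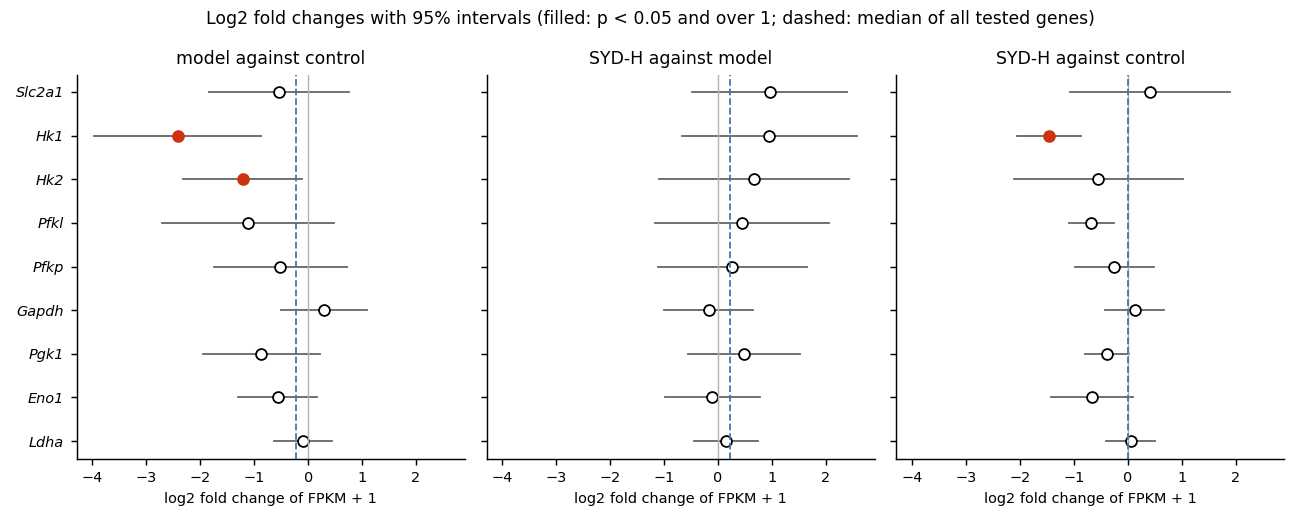
Log2 fold changes of FPKM + 1 with 95% intervals from limma for the 9 members tested in the 3 comparisons; filled points pass the study's criteria and dashed lines are the medians of all tested genes (-0.23, 0.22 and 0). Hk1 is filled in both comparisons with the control group, and the intervals of all 9 members include 0 in the SYD-H group against the model group.

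Slc2a1 encodes GLUT1, the basal glucose transporter of most cells. Its FPKM in libraries 1, 2 and 3 of each group were 7.70, 2.04 and 5.79 (control), 1.97, 4.96 and 2.27 (model) and 13.5, 6.35 and 2.94 (SYD-H). The groups overlapped, and the control libraries alone differed 3.78-fold, a wider relative spread than that of 90.0% of the tested genes. The log2 fold change was -0.55 ± 0.53 (SE) for model against control and 0.96 ± 0.60 (SE) in the SYD-H group against the model group, with a 95% interval of -0.48 to 2.39. Leaving out single libraries moved the former between -0.99 (without control library 2) and -0.23 (without control library 1), and the latter between 0.48 (without SYD-H library 1) and 1.42 (without SYD-H library 3). Adjusted p-values for Slc2a1 in limma were 0.621 and 0.723.

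Hk1 is the widely expressed hexokinase, bound to the mitochondrial surface, and a red cell form of it is made from a start of its own. The gene spans 30230486 to 30332131 on the minus strand of chromosome 20 in the coordinates of the deposited table, whose rat build is not given in the sources used here. Its FPKM were 19.4, 27.7 and 18.8 (control), 6.01, 6.04 and 0.548 (model) and 9.83, 6.10 and 6.19 (SYD-H). Every control library stood above every model and SYD-H library, and model library 3 stood far below the rest with 26 reads. The mean was 5.24-fold higher in the control group than in the model group and 2.98-fold higher than in the SYD-H group.

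The log2 fold change of Hk1 was -2.42 ± 0.64 (SE) for model against control (unadjusted p = 0.00857, adjusted p = 0.112, limma). It was -1.46 ± 0.24 (SE) in the SYD-H group against the control group (adjusted p = 0.0172, limma). Hk1 was called in both comparisons under each of the 16 alternative settings, of which 1 leaves a single model library in the first comparison and repeats the leaving out of SYD-H library 3 in the other, with adjusted p-values of 0.00839 to 0.36 and of 0.0102 to 0.224. The log2 fold changes over these settings ran from -5.05 (TPM) to -1.69 and from -3.01 to -1.29, and without model library 3 the former was -1.69. Between the SYD-H and model groups it differed by 0.95 ± 0.68 (SE), with a 95% interval of -0.67 to 2.58 and an adjusted p of 0.723 (limma), and the lowest SYD-H library exceeded the highest model library by only 0.0661 FPKM. Without model library 3, this difference was 0.22.

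Markers of several cell types also differed between the groups. Of all tested genes, 14.7% were called in the model group and 16.5% in the SYD-H group against the control group. Those called lower were 1553 and 1282 of the 13898. Of the 15 chondrocyte markers, 9 were called lower in the model group (median log2 fold change -3.17) and 1 in the SYD-H group (median -1.74) against the control group. The chondrocyte sum did not follow Hk1 within the control group. There, library 2 had the lowest sum, 493 FPKM, and the highest Hk1, 27.7 FPKM. The 8 B cell markers summed to 263 to 340 FPKM in the control group, 17.2 to 58.3 in the model group and 15.5 to 46.1 in the SYD-H group, and 6 of the 8 were called lower in each comparison with the control group, with 0 of the 8 at 0 in all libraries. Of the 11 erythroid markers tested, 1 was called lower in the model group (median log2 fold change -1.97) and 7 in the SYD-H group (median -2.87). The erythroid sum did not follow Hk1 within the model group, where library 3 had the highest sum, 45275 FPKM, and the lowest Hk1, and library 2 had the lowest sum, 310 FPKM, and 6.04 FPKM of Hk1, close to library 1. Of 9 neutrophil markers tested, 5 were called lower in the model group and 7 in the SYD-H group against the control group. Bone and vessel markers moved the other way in the SYD-H group, whose sums lay above those of every control library. The 9 osteoblast markers had 3243 to 6460 FPKM (control), 1647 to 9887 FPKM (model) and 10319.9 to 12596 FPKM (SYD-H), the 7 osteoclast markers 616 to 1063, 450.2 to 1790.0 and 2008 to 2688 FPKM, and the 7 endothelial markers 39.4 to 51.6, 19.8 to 219 and 94.2 to 132 FPKM. Against the control group, 3, 5 and 4 of them were called higher in the SYD-H group, as were 1007 of all 13898 tested genes. The part of any of these cells in the Hk1 values was not tested. As to the mitochondrial share of the reads, the log2 fold change of Hk1 for model against control was -3.03 with TPM over non-mitochondrial genes. It was -1.69 without the 2 model libraries over 50%, which leaves 1 model library. Every model library had a higher mitochondrial share than every control library, so this share and the group cannot be told apart.

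Hk2 encodes the inducible hexokinase of muscle, fat and growing cells. The table places it at 115234509 to 115283530 on the minus strand of chromosome 4. Its FPKM were 3.68, 2.16 and 3.26 (control), 0, 1.51 and 1.02 (model) and 4.04, 3.01 and 0 (SYD-H). All model libraries lay below all control libraries, and the SYD-H libraries took both sides of the control range. The zeros stood on 0 reads in model library 1, where 3 reads would be 0.223 FPKM, and in SYD-H library 3, where 3 reads would be 0.0706 FPKM. These limits cover counting error only.

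The log2 fold change of Hk2 for model against control was -1.21 ± 0.46 (SE, unadjusted p = 0.0364, adjusted p = 0.222, limma). It was called under 6 of the 16 alternatives, over which the adjusted p ran from 0.0125 to 0.568, and it fell to -0.82 and was no longer called without model library 1. The call was also lost without any 1 of the control libraries, where the log2 fold change was -1.10, -1.38 and -1.16. It was -2.44 with a pseudocount of 0.1 and -2.27 with TPM over non-mitochondrial genes, not called in either, and -3.16 with voom, where it was called. The difference between the SYD-H and model groups was 0.67 with a 95% interval of -1.09 to 2.43, and that between the SYD-H and control groups was -0.55 with an interval of -2.11 to 1.01, which became 0.17 without SYD-H library 3.

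Pfkl, the liver-type phosphofructokinase subunit, had 23.8, 19.5 and 19.6 FPKM (control), 20.1, 12.6 and 2.54 FPKM (model) and 10.8, 15.2 and 12.4 FPKM (SYD-H). The model libraries were spread 7.94-fold, from within the control range to far below it, while the SYD-H libraries sat together below the control group. In the SYD-H group against the control group, the log2 fold change was -0.68 ± 0.17 (SE, adjusted p = 0.045, limma), under the study's limit of 1. The adjusted p stayed under 0.05 in 6 of 16 alternatives and ranged from 0.0416 to 0.62. For model against control it was -1.12 ± 0.66 (SE, adjusted p = 0.414, limma), -0.37 without model library 3, and -1.66 and called without model library 1.

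Pfkp, the platelet-type subunit, gave 8.37, 5.73 and 6.63 FPKM (control), 3.33, 10.2 and 2.39 FPKM (model) and 6.07, 8.04 and 3.46 FPKM (SYD-H). Model library 2 was the highest of all and model libraries 1 and 3 fell below the control range. The difference between model and control was -0.52 ± 0.51 (SE, adjusted p = 0.622, limma) and had the opposite sign, 0.27, in voom on the recovered reads. Without model library 2 it was -1.03 and was called.

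Aldoa, the aldolase of muscle and most other tissues, could not be judged. The table listed it at 0 in control library 1, all model libraries and SYD-H library 2, and at 0.0495, 0.0463, 0.229 and 0.95 FPKM in the other 4, from 34 reads in the 9 libraries together. It was therefore not among the genes tested. The table has another coding entry, LOC103691235, on the same strand from the same first base (chromosome 1, 181402275 to 181417714 against 181402275 to 181406182 for Aldoa), which held 186 reads and carries the same protein name. It and 2 more entries with that name held 361 reads together. Whether reads on the shared stretch were set aside in the authors' counting was not tested. Aldoc, the aldolase best known from brain, was measured at 0.39 to 9.13 FPKM.

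Gapdh, which the study used as the reference gene of its qPCR, had 70.6, 51.7 and 49.0 FPKM (control), 70.5, 47.7 and 99.0 FPKM (model) and 52.7, 78.4 and 56.2 FPKM (SYD-H). The groups overlapped in each comparison. The log2 fold change was 0.29 ± 0.33 (SE, 95% interval -0.51 to 1.10) for model against control, or 0.041 without model library 3, and 0.12 ± 0.22 (SE) in the SYD-H group against the control group. Relative to the median of all genes, the former was 0.52, while TPM gave -2.87 with an all-gene median of -2.60. The table holds 24 other entries with the same protein name, and these took 4.58% of the reads on Gapdh and its copies, up to 8.07% in model library 3.

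Pgk1, which makes the first ATP of the pathway, had 93.1, 67.4 and 68.1 FPKM (control), 20.5, 57.1 and 57.7 FPKM (model) and 54.5, 59.2 and 58.6 FPKM (SYD-H). Every model and SYD-H library lay below every control library, and model library 1 was the lowest. The SYD-H libraries lay closer together than those of any other member, with a coefficient of variation of 4.49% against a median of 35.3% for all tested genes and 23.6% for those with a mean FPKM of 10 or more. The differences were -0.87 ± 0.44 (SE, adjusted p = 0.358) in the model group and -0.39 ± 0.17 (SE, adjusted p = 0.164) in the SYD-H group against the control group in limma, neither past the criteria. They became -0.38 without model library 1 and -0.24 without control library 1, while quantile normalization gave -1.10 for the former, which then passed the criteria. Between the SYD-H and model groups the difference of 0.48 became -0.0012 without model library 1.

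Eno1, the enolase of most tissues, had 139, 92.9 and 101 FPKM (control), 95.5, 76.7 and 54.5 FPKM (model) and 85.2, 84.1 and 44.6 FPKM (SYD-H). The SYD-H libraries were all below the control libraries, while model library 1 reached into the control range. The log2 fold changes against the control group were -0.57 ± 0.30 (SE, adjusted p = 0.376) in the model group and -0.67 ± 0.31 (SE, adjusted p = 0.187) in the SYD-H group in limma. Without model library 3 the former was -0.35, and without SYD-H library 3 the latter was -0.37. Entries with the same protein name took 2.32% of the reads on Eno1 and its copies over all libraries, but 13.4% in model library 1.

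Ldha, the lactate dehydrogenase subunit that favours lactate formation, had the narrowest range over the 9 libraries. Its FPKM were 94.2, 75.0 and 73.6 (control), 85.9, 70.9 and 70.0 (model) and 77.1, 100 and 74.7 (SYD-H). All 9 values lay within a 1.43-fold range, compared with 50.6-fold for Hk1. Its coefficient of variation was 14.2% in the control group, 11.8% in the model group and 16.7% in the SYD-H group, and 39.9, 2.17 and 18.9% of the tested genes had a lower one. Within the control group Pfkl, and within the SYD-H group Pgk1, varied less than Ldha. The log2 fold change was -0.09 ± 0.22 (SE, 95% interval -0.64 to 0.45) for model against control and 0.05 ± 0.18 (SE, 95% interval -0.40 to 0.50) in the SYD-H group against the control group. The entry overlaps Ldhc on the same strand and Tsg101 on the other, so reads on the shared stretches are uncertain.

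Ratios within a library do not depend on how libraries were scaled, so the members without zeros were also set against Gapdh. The ratio of Hk1 to Gapdh was 0.274, 0.536 and 0.384 (control), 0.0853, 0.126 and 0.00554 (model) and 0.186, 0.0778 and 0.11 (SYD-H). Every model and SYD-H library lay below every control library. The ratio of Pgk1 to Gapdh was 1.32, 1.30 and 1.39 (control), 0.29, 1.20 and 0.583 (model) and 1.03, 0.755 and 1.04 (SYD-H), again without overlap. The same held for Pfkl and Eno1. Of all other tested genes, 17.1% had a ratio to Gapdh lower in every model library than in every control library, and 17.3% in every SYD-H library. A higher ratio without overlap was found for 0 of the 7, against 4.43% of genes in the model group and 13.4% in the SYD-H group. For these 4 of 7 ratios, the exact permutation test (two-sided) gave p = 0.1 in both comparisons with the control group, the smallest p that 3 libraries against 3 allow, and 0.263 after Benjamini–Hochberg adjustment over the 21 ratio tests. The ratio of Ldha to Gapdh overlapped between all groups, with means of 1.43 ± 0.0858 in the control group, 1.14 ± 0.395 in the model group and 1.36 ± 0.0961 in the SYD-H group (SD, n = 3). Between the SYD-H and model groups, 0 of the 7 ratios were free of overlap, against 2.01% of genes lower and 4.17% higher. All 7 ratios share Gapdh as the denominator. The Gapdh difference between model and control was 0.29 on the log2 scale, and its part in these ratios was not tested.

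**Figure D3:**
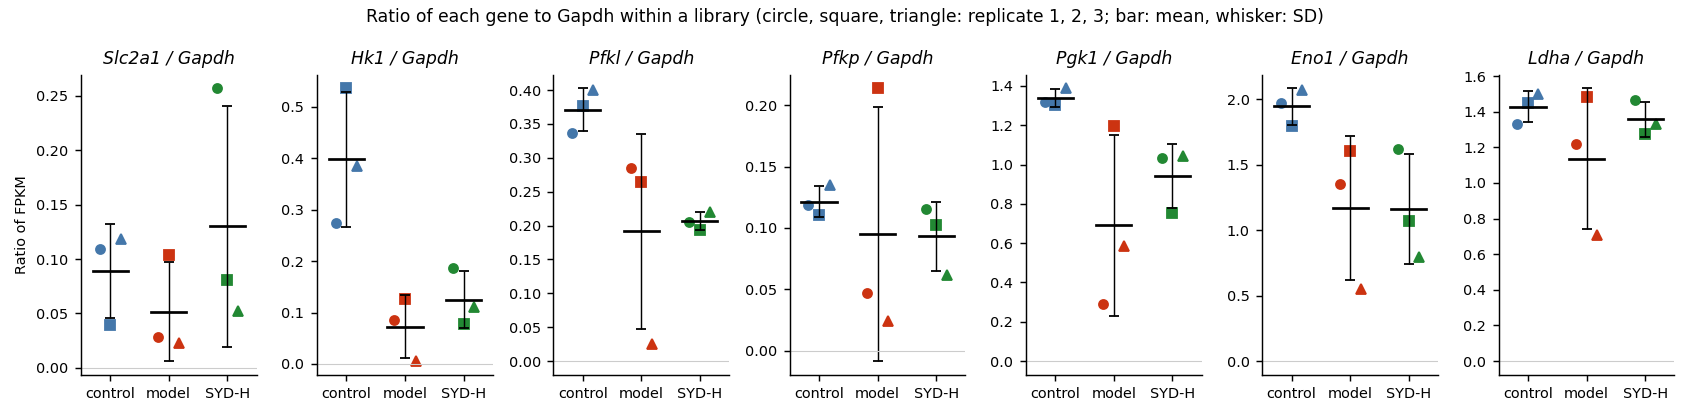
Ratio of FPKM of each member to that of Gapdh within each library (linear axes); symbols are libraries, bars are group means and whiskers are SDs. The ratios of Hk1, Pfkl, Pgk1 and Eno1 are lower in all 6 model and SYD-H libraries than in the 3 control libraries, while those of Slc2a1, Pfkp and Ldha overlap.

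Most steps are run by isozymes, and the share of each in the summed FPKM of those counted for its step was taken within each library. Among the hexokinases Hk1, Hk2 and Hk3, Hk1 held 68.9, 74.5 and 68.6% (control), 45.6, 73.4 and 35.0% (model) and 60.0, 52.0 and 97.8% (SYD-H). Adpgk and Hkdc1, also listed as hexokinases, were left out of this sum. In model library 3 the share rested on 26 reads of Hk1 and 25 of Hk2. The shares scattered widely in the model and SYD-H groups and overlapped the control shares. Hk3, a hexokinase of white blood cells, held 18.0 to 19.7% in the control libraries but 54.4, 8.22 and 0% in the model libraries.

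Among enolases, Eno1 held 88.0, 92.7 and 92.5% (control), 87.4, 84.2 and 54.7% (model) and 83.1, 59.0 and 60.1% (SYD-H). Each model and SYD-H library was below each of the controls (two-sided exact permutation p = 0.1 in each comparison, the smallest possible), the model group by 15.6 percentage points and the SYD-H group by 23.7 percentage points on average. Without model library 3, the former difference was -5.27 percentage points. Eno3, the muscle enolase, took 40.1% in model library 3, 35.6% in SYD-H library 2 and 34.5% in SYD-H library 3. In these 3 libraries the skeletal muscle markers summed to 1085, 1199 and 639 FPKM, above the other 6, and their part in the enolase shares was not tested. Eno2, the neuronal enolase, averaged 2.62% in control, 6.49% in model and 7.58% in SYD-H libraries, both groups again without overlap with the controls.

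Among phosphofructokinases, Pfkl held 59.2, 61.0 and 60.9% (control), 75.7, 49.0 and 18.5% (model) and 55.0, 44.4 and 50.9% (SYD-H). The SYD-H shares were all below the control shares (exact permutation p = 0.1), whereas the model shares lay on both sides of them. The muscle form Pfkm held 63.9% in model library 3. Ldha held 92.5 to 94.4% of the lactate dehydrogenase total (control), 80.1 to 94.2% (model) and 89.1 to 95.9% (SYD-H), the rest being Ldhb, and the groups overlapped. Among 3 glucose transporters, Slc2a1 held 11.1 to 49.0% (control), 17.6 to 30.3% (model) and 14.8 to 55.9% (SYD-H). Slc2a4, the insulin-responsive transporter of muscle and fat, took 6.16 to 10.4% in the control libraries and 19.4 to 53.1% in the model libraries without overlap (exact permutation p = 0.1), and Slc2a3, the transporter of neurons and blood cells, held a smaller share in every SYD-H library than in every control library (exact permutation p = 0.1).

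**Figure D4:**
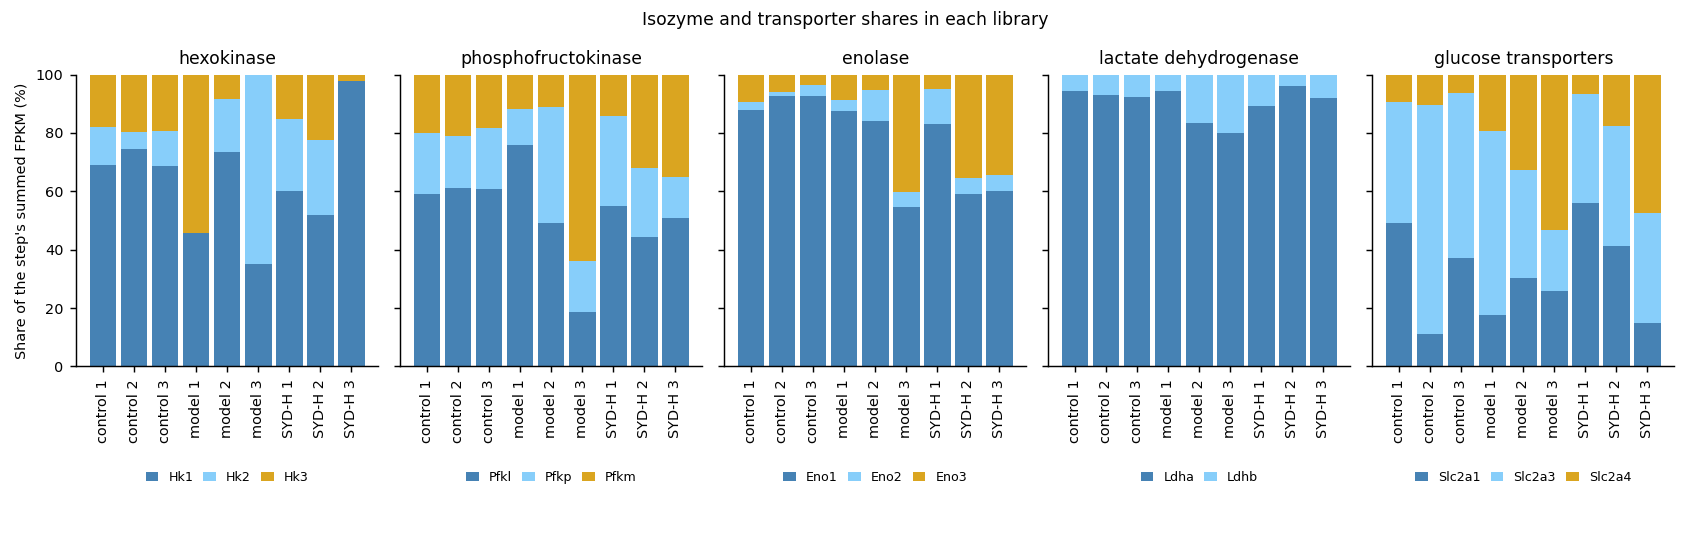
Share of each isozyme or transporter in the summed FPKM of those shown for its step (percent, stacked to 100%), for each of the 9 libraries. Eno1 holds 88.0% or more in the control libraries and 87.4% or less in the other 6, and Hk1 holds 35.0% in model library 3 and 97.8% in SYD-H library 3.

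A list of 41 other genes of glycolysis, its regulation and the fate of pyruvate and lactate was examined in the same fits, and 37 of them were tested. For model against control, 3 were called, 1 higher and 2 lower, or 8.11% beside the 14.7% of all genes, and 0 passed an adjusted p of 0.05 in limma (5 passed it unadjusted). In the SYD-H group against the model group, 1 was called, or 2.70% beside 4.15%. In the SYD-H group against the control group, 6 were called, 2 higher and 4 lower, and 6 had an adjusted p-value under 0.05, 2 higher and 4 lower. Either count is 16.2% of the list, beside 16.5 and 17.3% of all genes. The list's median log2 fold changes were -0.11, 0.25 and 0.06, beside -0.23, 0.22 and 0 for all genes.

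Slc16a1, the lactate and pyruvate carrier MCT1, had 31.2, 56.5 and 32.9 FPKM (control), 28.3, 2.90 and 12.2 FPKM (model) and 4.47, 5.45 and 2.79 FPKM (SYD-H). It was lower in the SYD-H and model groups, by -2.96 on the log2 scale in the SYD-H group (adjusted p = 0.00802) and by -1.79 in the model group (adjusted p = 0.259) in limma. Adpgk, which phosphorylates glucose with ADP in place of ATP, had 20.6, 27.4 and 21.5 FPKM (control), 5.23, 8.08 and 0 FPKM (model) and 15.9, 10.9 and 9.70 FPKM (SYD-H). These groups did not overlap in any comparison, with log2 fold changes of -2.64 (adjusted p = 0.158) in the model group and -0.90 (adjusted p = 0.0436) in the SYD-H group against the control group in limma. Like Hk1, both stood highest in control library 2.

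Pklr, the pyruvate kinase of liver and red cells, fell from 4.17, 9.63 and 4.97 FPKM in the control libraries to 0.21, 0.196 and 0.702 FPKM in the SYD-H libraries (log2 fold change -2.35, adjusted p = 0.0126, limma), and the model libraries held 8.04, 0 and 4.06 FPKM. Pfkfb4, which sets the level of a phosphofructokinase activator, was lower in the SYD-H group than in the control group by -1.46 (adjusted p = 0.014, limma), and Hk3 by -1.49 (adjusted p = 0.0914). The erythroid sum was lowest in model library 2 and was below each control library in SYD-H libraries 1 and 2, but in SYD-H library 3 it was 13953 FPKM, inside the control range, where Pklr and Slc16a1 were below every control library. Bpgm, the enzyme that makes the red cell's haemoglobin regulator, was not called in any comparison and is named after its values were seen. Its FPKM were 57.4, 142 and 71.1 (control), 454, 23.7 and 528 (model) and 18.1, 30.5 and 180.2 (SYD-H), and in each group the libraries stood in the same order as by the erythroid sum. Their part in the Pklr and Slc16a1 values was not tested.

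Among genes that were higher, Slc2a8, an intracellular glucose transporter, had 2.09, 1.48 and 2.48 FPKM (control) and 5.07, 5.76 and 4.67 FPKM (SYD-H) (log2 fold change 1.04, adjusted p = 0.0227, limma). Slc2a12 was higher by 0.69 (adjusted p = 0.0302, limma). Pdk4, which switches off pyruvate dehydrogenase, had 0.533 to 1.58 FPKM (control), 2.58 to 5.26 FPKM (model) and 2.25 to 16.0 FPKM (SYD-H). Its log2 fold changes against the control group were 1.40 (adjusted p = 0.14) and 2.11 (adjusted p = 0.0703) in limma, called in both. Ldhd, a dehydrogenase of D-lactate, was the gene called in the SYD-H group against the model group, with 0, 0.996 and 0 FPKM in the model libraries and 2.10, 1.00 and 2.29 FPKM in the SYD-H libraries (log2 fold change 1.12, adjusted p = 0.723, limma).

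**Figure D5:**
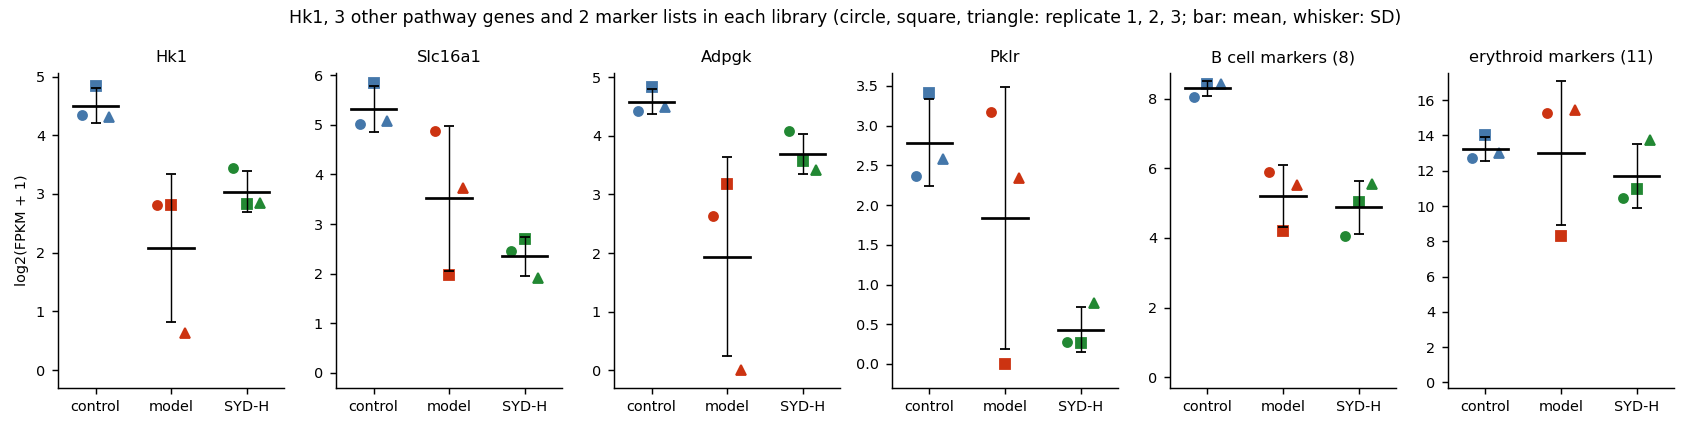
log2(FPKM + 1) of Hk1, Slc16a1, Adpgk and Pklr and of the summed FPKM of 8 B cell and 11 erythroid markers in each library; symbols are libraries, bars are means of the log2 values and whiskers are SDs. Hk1, Slc16a1, Adpgk and the B cell sum are lower in all 6 model and SYD-H libraries than in the 3 control libraries, whereas the erythroid sum in model libraries 1 and 3 lies above the control group.

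The members did not share a single pattern over the 9 libraries. Pearson's r of log2(FPKM + 1) over their 36 pairs ran from -0.66 (Hk1 with Gapdh) to 0.86 (Hk1 with Pfkl), with a median of 0.35. Outside the pathway, the tested gene most like Hk1 was C5ar2, a receptor of complement fragment C5a (r = 0.99 over 9 libraries). Slc2a1 was most like Slc38a2, an amino acid transporter (r = 0.97), Hk2 most like Thbs1 (r = 0.97), Pfkl most like Tmx2 (r = 0.98), Pfkp most like Casp9 (r = 0.98) and Pgk1 most like the sterol enzyme Sqle (r = 0.98). Gapdh and Ldha were most like Sypl2 (r = 0.95) and Klhl40 (r = 0.94), genes known from skeletal muscle, and Eno1 was most like Slc36a1 (r = 0.95). Each is the highest value among all genes tested and is given as a description, since the points share libraries, mitochondrial share and tissue composition.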

How the data were processed

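RNA from knee cartilage of 9 rat libraries (3 control, 3 model, 3 SYD-H) was sequenced. The authors deposited FPKM values for 32043 genes. Per the submitters' processing notes, HISAT2 2.0.5 was used, and the build they name, hg38, is a human one although the identifiers are rat. The counting tool and annotation release are not given in the sources used here. The library sizes behind the FPKM were 0.193 to 2.18 times the recovered reads, and whole reads served as depth and in voom. Whether mitochondrial reads shifted other values was examined with TPM.

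Groups came from the labels. For each comparison, limma 3.58.1 in R 4.3.3 (lmFit, eBayes with trend, two-sided) was fitted to log2(FPKM + 1) in 6 libraries over 13898 genes, and was tested on simulated data. Ratios and shares were compared with exact permutation tests over every split of the 6 libraries (Python 3.11.15, numpy 2.4.6). The members, gene lists, and tests were chosen with earlier results of these data known. Besides the 10 members, the genes named were list genes that passed a criterion or shared a step with a member, Bpgm (chosen after its values were seen), and the gene most like each member. The alternatives were a pseudocount of 0.1, filtering at a mean FPKM of 1 or not at all, TPM, TPM without mitochondrial genes, quantile normalization, voom, 1 fit of all 9 libraries, the replicate block, and leaving out libraries. Protein sequences were not used here.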

Additional observations from a re-analysis of the deposited data

How the results depend on the processing

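Hk1 was called in both comparisons with the control group under all 16 alternatives (1 of them with a single model library), and the counts of members called between SYD-H and model stayed at 0 under each. For model against control, the count of 2 members called became 9 with TPM (75.2% of all genes were then called), and 1 with a pseudocount of 0.1, with TPM over non-mitochondrial genes, with all 9 libraries in 1 fit, with the libraries over 50% mitochondrial left out, and with the replicate number as a block. It ran from 1 to 3 when single libraries were left out. TPM gave 4 members called in the SYD-H group against the control group, beside 43.4% of all genes. Same-numbered libraries deviated from their group means with correlations of -0.27 to 0.19, which cannot settle whether the numbers mark pairs. The block changed no call by the study's criteria but that of Hk2. Under the block, the adjusted p-values of Hk1 and Pfkl in the SYD-H group against the control group were 0.0705 and 0.139 in limma. In that fit 0 of all tested genes, the other pathway genes included, had an adjusted p-value under 0.05. The smallest was 0.0524 (limma).

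Small differences changed sign. For model against control, TPM gave -2.87 for Gapdh, voom gave 0.27 for Pfkp, and the libraries over 50% mitochondrial left out gave 0.079 for Slc2a1, 0.52 for Pfkp and -0.24 for Gapdh. In the SYD-H group against the model group, TPM gave 1.45 for Gapdh and 1.52 for Eno1, TPM over non-mitochondrial genes 0.029 and 0.10, quantile normalization 0.029 for Eno1, voom -0.38 for Pfkp, and the mitochondrial-rich libraries left out -0.49 for Pfkp, 0.42 for Gapdh, -0.0085 for Pgk1 and 0.14 for Eno1. In the SYD-H group against the control group, TPM gave -0.90 for Slc2a1, -1.41 for Gapdh and -1.49 for Ldha, quantile normalization -0.035 for Ldha, and the mitochondrial-rich library left out 0.17 for Hk2 and 0.029 for Pfkp. Leaving out single libraries gave -0.19 to 0.018 for Ldha in the first comparison. In the second it gave -0.31 to 0.98 for Pfkl, -0.083 to 0.78 for Pfkp, -0.44 to 0.082 for Gapdh, -0.0012 to 0.72 for Pgk1 and -0.32 to 0.20 for Eno1. In the third it gave -0.067 to 0.87 for Slc2a1, -0.99 to 0.17 for Hk2, -0.48 to 0.029 for Pfkp, -0.050 to 0.28 for Gapdh and -0.082 to 0.16 for Ldha. The causes were not tested. Depth outside mitochondrial genes was low in model libraries 1 and 3, where Slc2a1, Hk2 and Pfkp had 0 to 46 reads each, and in model library 3 Hk1 had 26 and Pfkl 47. TPM moved the median of all genes to -2.60, 1.22 and -1.31.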
